A study of Homo sapiens with 4 samples.

Results

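The Cpxm1, Cxcl12 and Lpl fibroblasts were a set of 398 mouse cells, 108 from implants on young matrix and 290 from implants on aged matrix, among 34722 cell barcodes in the series. They were chosen by their own transcripts. A barcode counted as a mouse cell when at least 90% of its gene UMIs (unique molecular identifiers, counted transcripts) came from mouse genes, with 3000 or more gene UMIs and at most 20% mitochondrial UMIs. Within these, cells with S100a8+S100a9 below 3% of mouse UMIs and Col1a1+Col1a2+Col3a1 at 0.2% or more formed the collagen-positive cells, 567 in the young and 996 in the aged library. The members were the collagen-positive cells with Spp1 below 0.5%, fewer than 10 UMIs of Mki67+Top2a+Cenpf+Ube2c, and at least 10 UMIs of Cpxm1+Cxcl12+Lpl that were not outnumbered by Pi16+Dpt+Clec3b. The levels of all these genes in the members are therefore a description of the choice and not a finding.

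Fibroblasts of fat-rich tissues such as the mammary fat pad make the collagen network and also hold precursors of fat cells. In single-cell surveys of such tissues, cells marked by Pi16, Dpt and Clec3b are commonly described as early stromal progenitors. Cells with more Cxcl12, Lpl or Icam1 are commonly described as closer to preadipocytes or to niche fibroblasts. Cxcl12 encodes a chemokine that holds and attracts cells bearing Cxcr4, Lpl encodes lipoprotein lipase, which releases fatty acids from circulating lipoproteins, and Cpxm1 encodes a secreted protein of the metallocarboxypeptidase family.

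The study asked whether mammary tissue of different age supports tumour formation differently. MCF10DCIS.com, a human breast line that forms lesions like ductal carcinoma in situ, was grown for 12 days on decellularized extracellular matrix (dECM) from mammary tissue of young (2 to 3 months) or aged (18 months or more) mice, then placed in the left or right fat pads of the same Rag1-/- recipient. Grafts with nearby stroma were collected after 4 weeks, dead cells were removed, and droplet-based single-cell RNA-seq was run as 1 pool per matrix age. Age here is thus the age of the matrix donors, all stromal cells came from Rag1-/- hosts, which make no mature lymphocytes of the T or B lineage, and the number of animals in each pool is not given in the sources used here. With 1 library per matrix age there is no replicate, no test was possible, and matrix age and pool cannot be told apart. Whether each recipient gave grafts to both pools, and on which side, is not given in the sources used here. All intervals below are 95% intervals that cover counting error only.

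Depth was alike in the 2 libraries. The median member had 18457.5 mouse UMIs in the young library (5830 to 57461) and 18828.5 in the aged library (2914 to 67120), with 4281 and 4151 genes and 123 and 113 human UMIs. The libraries shared 190 barcode sequences. Members carried 5 of them, and none was a member in both. Among members, 3 young and 5 aged cells had a doublet score of 0.25 or more.

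Members made up 19.05% of the collagen-positive cells in the young library (exact binomial interval 15.9 to 22.5%) and 29.1% in the aged library (26.3 to 32.0%). Of all mouse cells they were 2.10% and 5.33%. The share depended on how the members were chosen: with 20 UMIs of the 3 genes required it was 15.5% and 26.0%, and with collagens at 1% or more it was 25.8% and 36.1%. Of the other collagen-positive cells, those led by Pi16+Dpt+Clec3b (at least 10 UMIs and above Cpxm1+Cxcl12+Lpl, here called Pi16-led cells) were 35.8% and 33.1%, Spp1-high cells 28.4% and 22.5%, cycling cells 7.76% and 6.73%, and the remainder 8.99% and 8.53%.

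**Figure D1:**
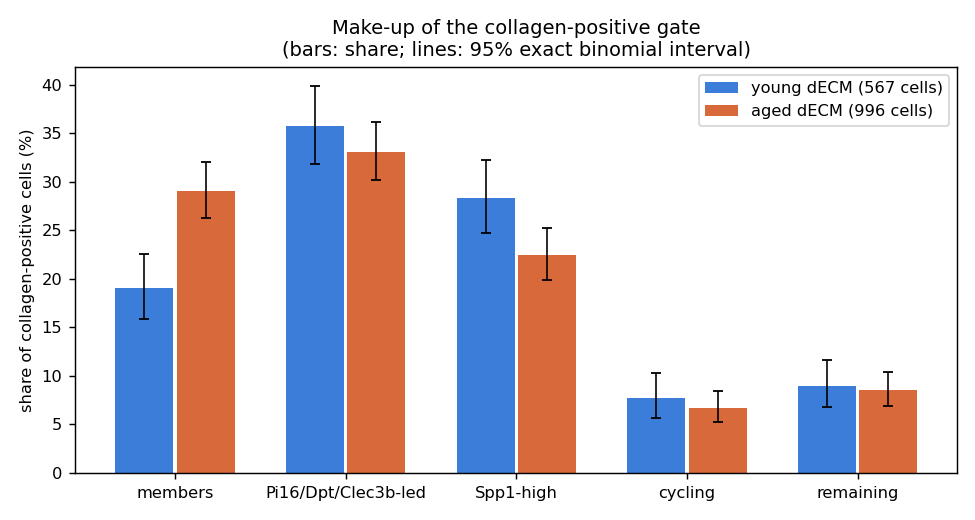
Share of the collagen-positive cells (y axis, percent) in each of 5 sets, for the young and the aged dECM library, with exact 95% binomial intervals. Members stood at 19.05% and 29.1%, and the Pi16/Dpt/Clec3b-led cells at 35.8% and 33.1%.

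Cpxm1 was the most abundant of the 3 genes. Its level over the summed UMIs of the members was 1684 UMIs per 1000000 mouse UMIs (CPM) in the young library and 2546 CPM in the aged library, against 205 and 287 CPM in the other collagen-positive cells. Cxcl12 stood at 1538 and 1717 CPM, against 215 and 233 CPM. Lpl stood at 848 and 1119 CPM, against 96.3 and 137 CPM. Between libraries the members' Cpxm1 level was 1.51-fold higher on aged matrix (1.46 to 1.57), Lpl 1.32-fold higher (1.25 to 1.39) and Cxcl12 1.12-fold higher (1.07 to 1.16). The rule chose the members on these genes, so the ratios describe the chosen cells and are no finding about matrix age.

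Single cells differed widely in these genes. A median member had 21.5 Cpxm1 UMIs in the young library (0 to 199) and 26.5 in the aged library (0 to 420). The median for Cxcl12 was 19 (0 to 231) and 23 (0 to 237), and for Lpl 7 (0 to 173) and 10 (0 to 157). After each cell was thinned to 3000 UMIs, Lpl was detected in 63.9% of young and 69.2% of aged members (77.8% and 87.2% before thinning), against 1.61% and 2.09% (3.22% and 3.60% before thinning) of mouse cells outside the collagen-positive set, which were rich in neutrophil and macrophage markers and had a median of 5280.5 and 5295 UMIs. The thinned share of Lpl was 34.0% and 41.8% in Pi16-led cells, so the gene was present there at a lower rate. Thinning left out 1 aged member and, outside the collagen-positive set, 145 young and 140 aged cells as too shallow.

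**Figure D2:**
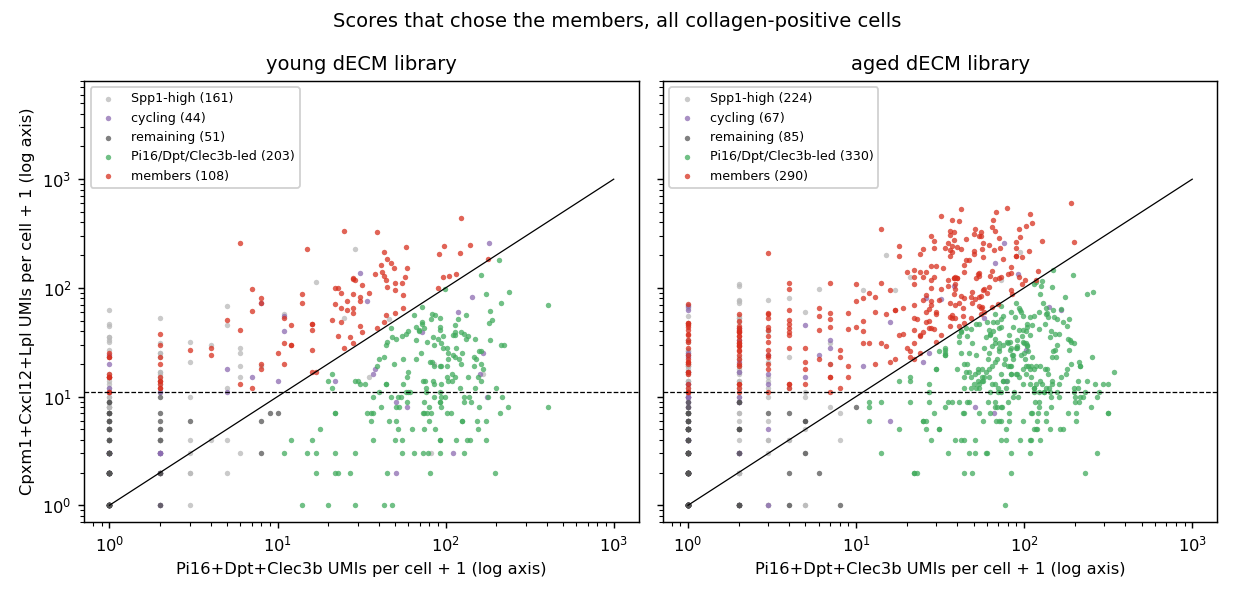
UMIs of Cpxm1+Cxcl12+Lpl (y axis) against UMIs of Pi16+Dpt+Clec3b (x axis), each plus 1 on a log axis, for every collagen-positive cell, coloured by set. The solid line marks equal scores and the dashed line 10 UMIs; members and Pi16/Dpt/Clec3b-led cells form neighbouring clouds on both sides of the solid line without a gap.

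The cut ran through a continuum. In the young library 6 members lay within 4 UMIs above the line of equal scores and 2 cells within 4 UMIs below it. In the aged library these were 14 and 5 cells. At the lower limit, 5 young and 10 aged members had 10 or 11 UMIs of the 3 genes, with Pdgfra at 283 and 176 CPM. Just outside, 3 cells in each library had 8 or 9 UMIs, with Pdgfra at 201 and 269 CPM. Members also kept transcripts of the opposing genes, with Pi16 at 649.8 and 526 CPM, Dpt at 661 and 824 CPM and Clec3b at 120.1 and 131 CPM.

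The fibroblast label held in the members, and 4 of 7 mature fat cell markers had no UMI. All 8 fibroblast markers were at 20 CPM or more in both libraries. Pdgfra, the receptor that marks mesenchymal fibroblasts, was at 420.3 CPM (young) and 465 CPM (aged), Dcn (decorin) at 5273 and 7474 CPM, and Lum (lumican) at 1500.2 and 1736 CPM. Adipoq, Plin1, Cidec and Lep, which mark mature fat cells, had no UMI in any member. A count of 0 allows up to 1.35 CPM in the young and 0.508 CPM in the aged members. Plin4, a lipid droplet coat protein on the same list, had 2 UMIs in young members and 28 UMIs in 20 aged members, 0.90 and 4.74 CPM.

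Markers of other cells were present at low levels. The 12 macrophage markers summed to 313 CPM in young and 376 CPM in aged members, against 9650 and 11547 CPM outside the collagen-positive set, and 13 young and 28 aged members had 10 or more UMIs of them. The 8 neutrophil markers summed to 3157 and 1755 CPM. Most of this was S100a8 (885 and 495 CPM) and S100a9 (2019 and 1089.9 CPM), which the rule limits, so this sum is no measure of purity. The 9 pericyte and smooth muscle markers summed to 232 and 65.6 CPM, with 10 young and 6 aged members at 10 or more UMIs. Rgs5, a pericyte marker, was found in 3.70% of young and 2.07% of aged members. Endothelial markers summed to 29.2 and 50.5 CPM.

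The members' transcripts were compared with those of all other collagen-positive cells in each library. A gene was measured when it reached 20 CPM in the higher group and 100 UMIs, and called when the members differed 2-fold or more in the same direction in both libraries. Of 5938 genes outside the rule, 142 were higher (2.39%) and 171 lower (2.88%), 5.27% in either direction. These cells were split from the others by expression, so the counts describe the split and carry no test.

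The genes with the steadiest excess included several with tissue roles. Scg3, a secretory granule protein, was at 142 CPM in young and 116 CPM in aged members, against 6.75 and 13.1 CPM in the other collagen-positive cells. Enpp2 (autotaxin, which makes lysophosphatidic acid) was at 67.5 and 52.5 CPM against 4.77 and 6.20 CPM. Col28a1, a collagen, was at 76.0 and 91.0 CPM against 7.85 and 10.4 CPM. Between 28.6% and 35.2% of members had a UMI of each of these 3 genes, so each was borne by a part of the set. Fbln7 (fibulin-7, a cell adhesion protein of the matrix) was at 47.2 and 67.4 CPM against 5.80 and 7.79 CPM, and Ptn (pleiotrophin, a heparin-binding growth factor) at 211 and 308 CPM against 35.5 and 61.6 CPM. Mme (neprilysin, a cell surface peptidase found on preadipocytes), Ndnf, Fmo1 and Slc1a3 (a glutamate transporter) were between 5.19-fold and 13.1-fold higher.

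Some of these excesses rested on few cells. Reg1 was at 192 and 112 CPM against 6.46 and 6.30 CPM, but 1 young cell held 53.9% of the young UMIs. Reg3g was at 63.4 and 47.1 CPM against 8.95 and 2.00 CPM, and 1 young cell held 46.1%. Both encode secreted lectins. Cxcl13, a B cell attracting chemokine, was at 46.8 and 72.3 CPM against 3.52 and 5.17 CPM, with UMIs in 11.1% of young and 8.62% of aged members.

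**Figure D3:**
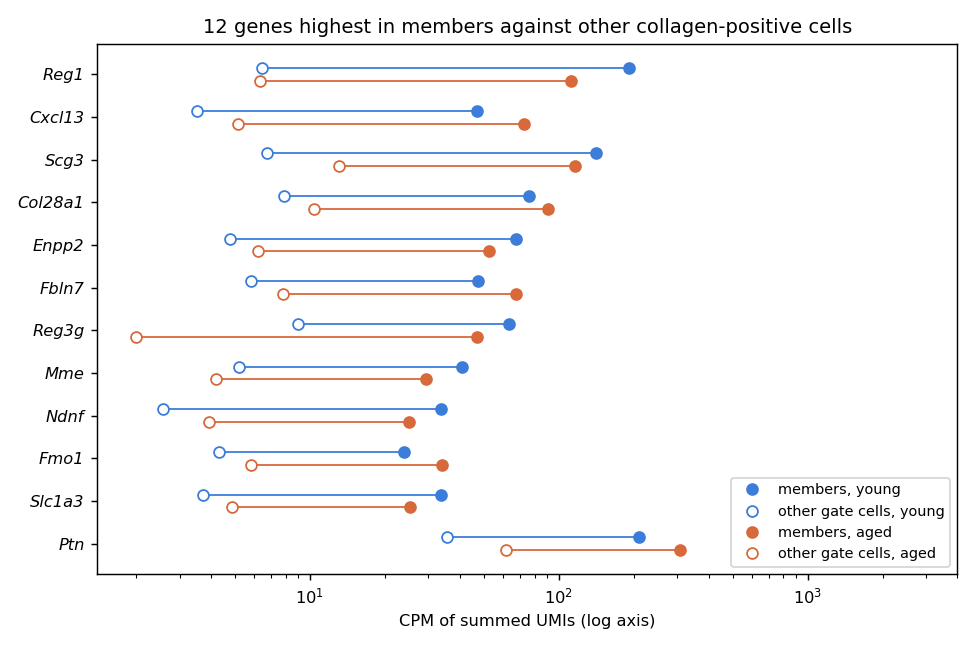
Level (x axis, CPM of summed UMIs, log axis) of the 12 genes with the highest ratio of members to other collagen-positive cells, leaving out the genes of the rule. Filled points are members and open points the other collagen-positive cells, blue for the young and orange for the aged library; every filled point lies to the right of its open point, and Reg1 in the young library spans 6.46 to 192 CPM.

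The comparison cells included the Spp1-high and cycling cells, which the rule keeps out of the members. Hmga2, a chromatin protein of proliferating mesenchyme, was at 14.8 and 26.9 CPM in members against 468 and 374 CPM. Ccnd1 (cyclin D1) was at 19.3 and 9.83 CPM against 335 and 254 CPM, and Areg (amphiregulin, an epidermal growth factor receptor ligand) at 13.9 and 4.41 CPM against 333 and 208 CPM. The neuropeptide gene Cck was at 0.90 and 9.49 CPM against 407 and 167 CPM. The other 8 of the 12 lowest genes included the mitotic genes Ccnb1, Cenpe, Hmmr, Prc1 and Cdca8.

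Among genes around lipoprotein lipase, none of 10 measured genes was called against all other collagen-positive cells. Against Pi16-led cells alone, Apoe and Fabp4 were higher of 10 measured and none was lower, with list medians of 0.28 and 0.62 on the log2 scale. Angptl4, which inhibits the enzyme, was at 289 and 317 CPM against 212 and 208 CPM in the other collagen-positive cells. Lmf1, needed for lipase folding, was at 13.9 and 13.0 CPM against 13.4 and 12.7 CPM. Of the preadipocyte list, 3 of 10 measured genes were higher and none lower, with list medians of 0.27 (young) and 0.31 (aged) on the log2 scale against -0.05 and -0.11 over all genes. These were Icam1 (85.0 and 118 CPM against 38.9 and 52.1 CPM), Mme, and Clec11a (40.0 and 43.7 CPM against 12.4 and 17.4 CPM), which encodes a secreted growth factor for bone progenitors. Against Pi16-led cells alone the direction of this list's median turned, at -0.32 and -0.20, with Mme, F3 and Clec11a higher and Ebf2 and Gpc3 lower of 12 measured. With collagens at 1% or more 1 gene of the list was higher than in the other collagen-positive cells, and none was with thinned cells. Pparg, the main regulator of fat cell formation, was under the limit for measured genes, at 4.95 CPM in young members and 7.45 CPM in aged members against 0.514 and 0.973 CPM, with UMIs in 8.33% and 13.1% of members.

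Of the genes around Cxcl12, 1 of 8 measured genes was higher and 1 lower. Cxcl14, another chemokine, was at 3886 and 2004 CPM against 933 and 817 CPM. Dpp4, the peptidase that cuts and inactivates the Cxcl12 protein, was at 36.0 and 41.8 CPM against 92.4 and 104 CPM. Ackr3, a receptor that removes Cxcl12, was at 125 and 136 CPM against 144 and 152 CPM. The list medians were 0.25 and 0.41 on the log2 scale. Against Pi16-led cells alone they turned to -0.56 and -0.53. There Cxcl14 and Vcam1 were higher and Ackr3, Dpp4, Ebf3 and Il34 lower of 10 measured. The receptor gene Cxcr4 was at 5.85 and 4.24 CPM in the members themselves. Among the carboxypeptidase genes related to Cpxm1, 2 of 5 were higher than in all other collagen-positive cells. Cpxm2 was at 159 and 107 CPM against 34.3 and 38.9 CPM, and Cpz at 81.9 and 81.5 CPM against 12.0 and 19.8 CPM. Against Pi16-led cells alone, Cpxm2 was the only gene called of 5 measured, and it was higher. The list medians there were 0.03 and 0.18.

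Matrix lists differed in their share of called genes. No fibrillar or associated collagen of 8 measured was called (list medians 0.74 and 0.31), and Col1a1+Col1a2+Col3a1 belonged to the rule. Of 14 basement membrane genes 3 were higher: Nid2 (nidogen-2; 74.2 and 60.5 CPM against 10.5 and 17.5 CPM), Col15a1 and Smoc2. Of 7 small proteoglycans 3 were higher: Podn (161 and 163 CPM against 35.7 and 38.7 CPM), Fmod and Ecm2. Of 27 matricellular and elastic fibre genes 3 were higher, Ccn5, Fbln7 and Mfap4. Of 26 protease and inhibitor genes, Mmp11, Adamts12 and Ctsk were higher and Mmp10 lower. With collagens at 1% or more, 1 gene was higher in each of the basement membrane, proteoglycan, matricellular and protease lists. Against Pi16-led cells alone, Fmod was higher and Ogn lower of 7 small proteoglycans. Of 14 basement membrane genes 5 were higher, with Nid2 and Col15a1 but not Smoc2, and 2 lower. Of 27 matricellular and elastic fibre genes 6 were higher, with Fbln7 but not Ccn5 or Mfap4, and 4 lower. Mmp3, Mmp13 and Adam12 were higher and Htra3 lower of 25 protease and inhibitor genes. Of 8 fibrillar or associated collagens 2 were higher and 1 lower.

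Secreted regulators were split. Sfrp1 and Sfrp2, secreted inhibitors of WNT ligands, were the 2 of 8 WNT genes called higher, Sfrp1 at 813 and 544 CPM against 118 and 109.9 CPM. Igf1, the insulin-like growth factor made by stroma, was at 344 and 362 CPM against 71.2 and 87.8 CPM. Igfbp4, which binds it, was at 1571 and 977 CPM against 356 and 411 CPM, while Igfbp5, another binding protein, was lower at 87.7 and 84.7 CPM against 351 and 337 CPM. Of 18 growth factor genes, Fgf10, Mdk, Ptn and Gas6 were higher and Pdgfa, Pdgfc, Areg and Hbegf lower. Against Pi16-led cells alone, 5 of 17 growth factor genes were higher, among them Pdgfa but not Gas6, and 4 were lower. Of 10 insulin-like growth factor genes none was higher against Pi16-led cells, and Igfbp5 and Igfbp6 were lower. Of 7 WNT genes, Wnt5a, Sfrp1 and Dkk3 were higher against Pi16-led cells, Wnt2 and Sfrp4 were lower, and Sfrp2 was not called. Saa3, an acute phase protein, was at 4987 and 4181 CPM against 1056 and 995 CPM. It and Il1r1, the interleukin-1 receptor, were the 2 higher of 22 inflammatory genes, and Il11, Il1rl1 and Ptges were the 3 lower. With collagens at 1% or more, 2 inflammatory genes were higher and none lower. At that setting 3 growth factor genes were higher and 1 lower, and the WNT and insulin-like growth factor lists each had 1 higher and 1 lower.

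Complement was the list with the most higher genes for its size. Of 11 measured genes, 8 were higher in both libraries, including C3, C1s1, Cfb and Serping1. C3, the central component, was at 1166 and 1761 CPM against 477 and 606 CPM, and Serping1, which inhibits the proteases that start the classical pathway, at 1518 and 1905 CPM against 669 and 853 CPM. Cd55, a surface inhibitor of complement, was the 1 lower gene. Pi16-led cells had C3 at 1525 and 1631 CPM and Spp1-high cells at 42.0 and 73.2 CPM. With collagen at 1% or more required of all cells, which leaves out many Spp1-high cells, none of the 11 was higher, and with every cell weighted equally 2 were.

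Hypoxia and glycolysis genes and cell cycle inhibitors were at the other end. Of 16 measured hypoxia and glycolysis genes 7 were lower and none higher, including Ldha (471 and 388 CPM against 968 and 824 CPM) and the glucose transporter Slc2a1 (59.4 and 37.6 CPM against 143 and 135 CPM). With collagens at 1% or more, none was lower. Cdkn1a, Cdkn2a and Cdkn2b were the 3 of 10 cell cycle inhibitor genes called lower, Cdkn2a at 18.9 and 12.5 CPM against 104 and 73.2 CPM. None of this list was lower with collagens at 1% or more, and none of 8 measured was called against Pi16-led cells.

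Members were also set against the Pi16-led cells alone, without Spp1-high and cycling cells, a comparison added after the data were seen. Of 5815 measured genes, 151 were higher (2.6%) and 187 lower (3.22%). The rule split these sets by expression too, so the counts describe the split and carry no test. Contractile genes stood out by count: 7 of 10 were higher, with list medians of 2.75 and 2.21 on the log2 scale. Against all other collagen-positive cells none of 12 contractile genes was called, with medians of 0.60 and -0.70, so this excess was relative to Pi16-led cells. Acta2 (smooth muscle actin) was at 1574 CPM in young and 668 CPM in aged members against 182 and 89.0 CPM in Pi16-led cells, and Tagln (transgelin) at 1857 and 738 CPM against 141 and 62.0 CPM. These genes are shared by myofibroblasts and by smooth muscle cells, whose markers are given above. Contractile transcripts were uneven among the members. In clusters 1 and 5 of the clustering described below, the list summed to 11625 and 9121 CPM. In the other clusters the sum was between 883 and 2218 CPM.

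Matrix and signalling genes also differed between members and Pi16-led cells. Col7a1, the collagen of anchoring fibrils, was at 110.2 and 57.3 CPM against 1.35 and 1.71 CPM. Inhba (activin A subunit) was at 196 and 188 CPM against 15.7 and 17.9 CPM, and Grem1, an inhibitor of bone morphogenetic proteins, at 213 and 99.1 CPM against 16.8 and 7.64 CPM. Tnc (tenascin-C) was at 878 and 415 CPM against 102 and 50.3 CPM. Among the clusters of members described below, Col7a1 was a leading gene of cluster 1 and Grem1 of cluster 5. Inhba and Grem1 were lower in members than in all other collagen-positive cells, among which Spp1-high cells held 774 and 746 CPM of Inhba and 1305 and 1096 CPM of Grem1. Of 11 complement genes only Cd59a was higher against Pi16-led cells and Cd55 was lower.

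All 14 measured genes of a list of early stromal progenitor genes were lower in members than in Pi16-led cells, with medians of -1.93 and -1.92. The sets were split on Pi16+Dpt+Clec3b against Cpxm1+Cxcl12+Lpl, and the list was written with earlier results known. This count is therefore a description of the split and no independent support for it. Sema3c, a guidance factor, was at 41.8 and 46.1 CPM against 546 and 569 CPM, and Cd34 at 195 and 221 CPM against 645 and 718 CPM. The lowest genes were Dmkn (0.450 and 1.86 CPM against 173 and 130.1 CPM), Bmp3, Efhd1 and Car8.

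The 3 genes did not mark the same cells equally. The gene with most UMIs was Cpxm1 in 52 young and 142 aged members, Cxcl12 in 42 and 106, and Lpl in 13 and 38, with 1 and 4 ties. Spearman correlations across cells, on each gene's share of UMIs, were 0.38 (young, 108 cells) and 0.47 (aged, 290 cells) for Cpxm1 and Cxcl12, 0.39 and 0.55 for Cpxm1 and Lpl, and 0.54 and 0.51 for Cxcl12 and Lpl. The rule chose the cells on the summed UMIs of these genes, so the cut itself can shape the correlations. Each share also fell with depth. The Spearman values with depth for Cpxm1, Cxcl12 and Lpl were -0.30, -0.22 and -0.35 in young members. In aged members they were -0.15, -0.16 and -0.29. Cells of 1 library share its preparation, and these values are descriptions.

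Of 3182 genes measured in this split, members led by Cpxm1 had 10 genes 2-fold higher than the other members in both libraries and 2 lower, those led by Cxcl12 had 3 and 21, and those led by Lpl 9 and 18. Members led by Cpxm1 had the contractile gene Actg2 at 467 CPM (young) and 78.9 CPM (aged), against 44.1 and 15.1 CPM in those led by Cxcl12 and 5.20 and 14.2 CPM in those led by Lpl. Cells led by Cxcl12 had Timp1, a protease inhibitor, at 2218 and 2922 CPM, against 1029.6 and 782 CPM in cells led by Cpxm1 and 519.6 and 613 CPM in cells led by Lpl. Cells led by Lpl had Cxcl13 at 192 and 265 CPM, against 55.0 and 46.9 CPM with Cpxm1 leading and 8.60 and 53.1 CPM with Cxcl12 leading. Fgf10, a ligand that acts on epithelium and preadipocytes, was at 301 and 126 CPM in Lpl-led cells against 28.9 and 50.1 CPM in Cpxm1-led cells. The Lpl-led groups are small, at 13 and 38 cells.

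Clustering the members on genes outside the rule gave 8 clusters, described here by number. The count depended on the resolution, with 4 clusters at 0.4 and 10 at 1.0. Clusters 1 (32 young and 49 aged cells) and 5 (13 and 34 cells) held most contractile transcripts, with the 14 contractile genes summing to 11625 and 9121 CPM. In the other 6 clusters the sum was between 883 and 2218 CPM. Cluster 5 was also lowest for complement, at 633 CPM, while clusters 3 and 6 reached 12292 and 12026 CPM. Leading genes of cluster 5 included Hmga2 and Grem1, both lower in members than in all other collagen-positive cells. Spp1 was at 1774 CPM in cluster 5, 1648 CPM in cluster 7 and 1277 CPM in cluster 1.

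Inflammatory genes summed to 26803 CPM in cluster 3, whose leading genes included Has1, Il6 and Ptx3, and hypoxia and glycolysis genes to 8602 CPM in cluster 7, whose leading genes included Ndufa4l2, Pgk1 and Eno1. Cluster 3 held 4 young and 52 aged cells and cluster 7 held 2 and 32, so each is nearly a set of the aged library and may reflect that library. Cluster 8 (6 young and 11 aged cells) was led by Tnf, Ccr2 and Itgam, genes of myeloid cells, with macrophage markers at 2619 CPM, neutrophil markers at 7982 CPM and 4 cells with a high doublet score. Their part in the results below was not tested.

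**Figure D4:**
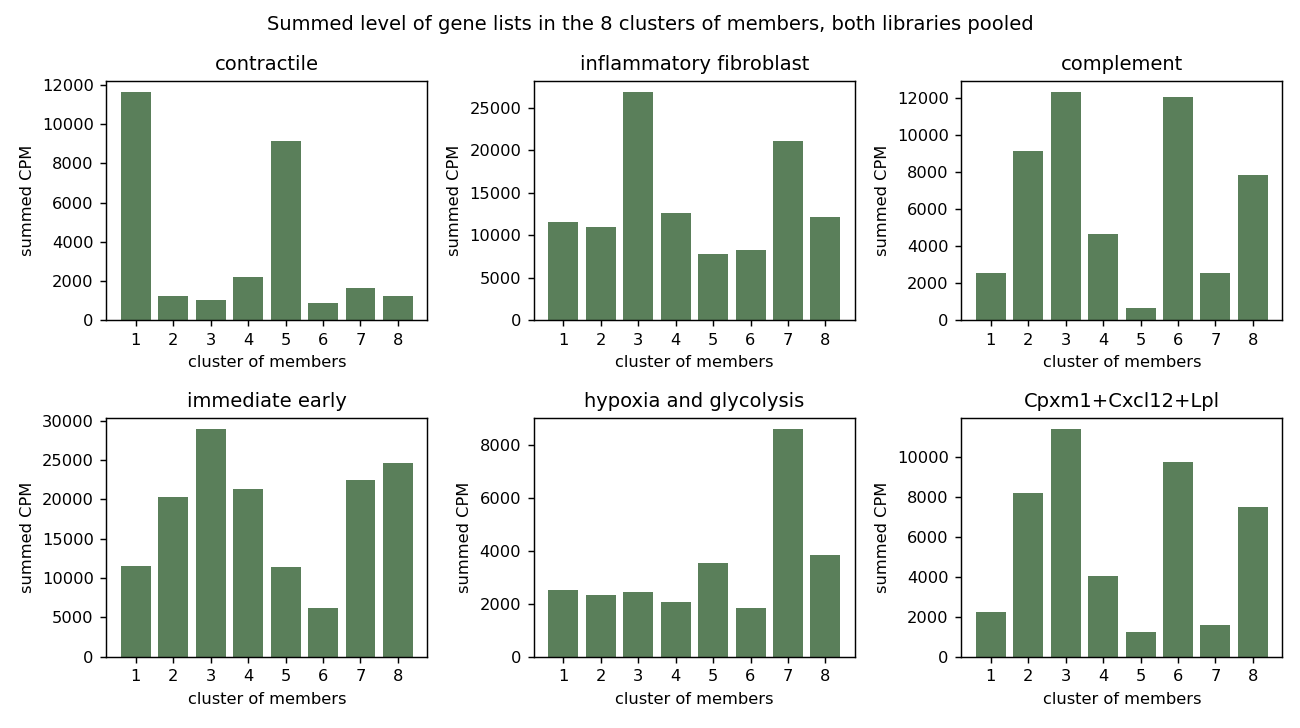
Summed level (y axis, CPM, both libraries pooled) of 5 gene lists and of Cpxm1+Cxcl12+Lpl in the 8 clusters of members (x axis). Contractile genes are concentrated in clusters 1 and 5 (11625 and 9121 CPM) and hypoxia and glycolysis genes in cluster 7 (8602 CPM).

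Between matrix ages, members on aged matrix had lower levels of contractile and interferon-response genes and higher levels of several immediate early genes. Chemokine genes were split, with Cxcl1 and Ccl7 higher and Cxcl14, Cxcl10 and Ccl9 lower. A single young cell held 78.4% of the young Cxcl10 UMIs, and a single young cell held 88.6% of the young Ccl9 UMIs. A gene was called when it differed 1.5-fold or more. Of 6007 measured genes, 145 were higher (2.41%) and 260 lower (4.33%) on aged matrix, 6.74% in either direction, with a median over all genes of -0.08 on the log2 scale. Genes of the rule were not left out of these counts, and Cpxm1 was among the higher and S100a8 and S100a9 among the lower. The split depended on scaling: with TMM (trimmed mean of M values) 220 were higher and 186 lower, and with median-of-ratios 220 and 185.

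Contractile genes were the list with the greatest share called lower, 10 of 12 measured, with a median of -1.03. Acta2 was at 1574 CPM in young and 668 CPM in aged members, 2.36-fold lower on aged matrix (2.25 to 2.47), and Tagln at 1857 and 738 CPM, 2.51-fold lower (2.41 to 2.62). Actg2 (enteric smooth muscle actin) was at 244 and 46.6 CPM, Cnn1 (calponin) at 51.7 and 12.9 CPM, and Myh11 (smooth muscle myosin) at 41.8 and 5.76 CPM. In the other collagen-positive cells of the same libraries Acta2 was at 938 and 1183 CPM and Tagln at 1102 and 1199.8 CPM, so the ratio there lay on the other side of 1.

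The contractile difference was larger in the summed level than in the typical cell. The 14 genes summed to 7868 CPM in young and 3914 CPM in aged members. Their share of a cell's UMIs had a median of 0.191% and 0.131% and a 90th percentile of 1.58% and 0.849%. Acta2 was detected in 51.9% and 35.9% of members. Within cluster 1 the sum was 15160.5 and 9427 CPM, 1.61-fold lower on aged matrix, and within cluster 5 it was 13140 and 7462 CPM, 1.76-fold lower. In cluster 4, where it was low, it was 1488 and 2427 CPM.

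The number of lower contractile genes varied with the choice of members. It was 9 without the members that carried macrophage, endothelial or pericyte and smooth muscle markers, 6 with 20 UMIs of the 3 genes or with thinned cells, 5 in members with a single hashing tag, and 3 when the 3 genes had to reach 0.1% of UMIs. The list median was below 0 in each of these, from -0.90 to -0.53. Summed pericyte and smooth muscle markers were also lower on aged matrix, at 232 and 65.6 CPM.

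Of 27 matricellular and elastic fibre genes 2 were lower on aged matrix and none higher, with a median of -0.01. Tnc was at 878 and 415 CPM, 2.12-fold lower (1.99 to 2.25), Ccn2 (connective tissue growth factor) at 477 and 214 CPM, 2.23-fold lower (2.06 to 2.42). With TMM scaling 2 other genes of this list were called higher. A single young cell held 27.8% of the young Tnc UMIs. Of 26 protease and inhibitor genes, Mmp10, Timp3 and Serpine2 were lower and Mmp11 higher, with a median of 0.02. Timp3, a protease inhibitor, was at 398 and 207 CPM. Of 11 fibrillar and associated collagens, Col11a1, Col12a1 and Col8a1 were lower and none higher, while Col1a1 was at 10758 and 9496 CPM and Col3a1 at 14265 and 17358 CPM. Of 14 basement membrane genes only Col18a1 was called, at 132 and 78.8 CPM.

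Interferon-response genes were lower in 7 of 14 measured, with a median of -0.58 and none higher. Isg15 was at 113 CPM in young and 38.6 CPM in aged members, 2.94-fold lower (2.44 to 3.53), with UMIs in 51.9% and 33.8% of cells. Oasl2, another interferon-induced gene, was at 54.4 and 32.2 CPM. Ifit3 was at 51.3 and 10.00 CPM and Ifit1 at 106 and 27.8 CPM, but single young cells held 36.0% and 50.6% of their young UMIs. Without the top cell of each library, Ifit1 was 2.00-fold lower. In the other collagen-positive cells Isg15 was at 56.5 and 47.3 CPM and Ifit1 at 28.9 and 34.7 CPM. With cells thinned to 3000 UMIs 1 gene of this list was called. The list's sum was lower on aged matrix in each of the 4 clusters with 10 or more cells per library, by 1.07-fold to 1.48-fold.

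Immediate early genes, which respond within minutes to growth signals and also to tissue dissociation, were higher on aged matrix in 7 of 24 measured and lower in 1, with a median of 0.43. Fosb was at 602 and 1228 CPM, 2.04-fold higher (1.92 to 2.16), Klf4 at 349 and 683 CPM, Egr1 at 1038 and 1642 CPM, and Fos at 1548 and 2513 CPM. Hspa1a, a heat shock gene, was the lower gene at 526 and 341 CPM. The other collagen-positive cells had Fos at 1062 and 1403 CPM and Fosb at 342 and 506 CPM. With every cell weighted equally 2 genes were higher and 2 lower, and 3 were higher and 2 lower with thinned cells. The list's sum was higher on aged matrix in cluster 1, at 8851 and 13307 CPM. It was also higher in cluster 2 (18850 and 21439 CPM) and cluster 4 (16460 and 22716 CPM). In cluster 5 it was lower, at 12911 and 10746 CPM. Cluster 3, with the highest sum at 28930 CPM, held 4 young and 52 aged cells. The part of cluster make-up in the difference between libraries was not tested.

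Of 22 inflammatory genes 6 were higher and 2 lower on aged matrix, with a median of 0.32. Cxcl1, a neutrophil attracting chemokine, was at 625 CPM in young and 1665 CPM in aged members, 2.66-fold higher (2.52 to 2.82), against 1046 and 1182 CPM in the other collagen-positive cells. Ccl7, a monocyte attracting chemokine, was at 652 and 1009.8 CPM, and Has1 (hyaluronan synthase) at 171 and 352 CPM. Il11, Il1rl1 and Lcn2 were the other 3 higher genes. Cxcl10, an interferon-induced chemokine, was at 154 and 17.6 CPM, but 1 young cell held 78.4% of the young UMIs. Without the top cell of each library the gene was 2.2-fold lower. Inflammatory genes did not move alike within clusters: in cluster 2 they summed to 7073 and 13685 CPM and in cluster 4 to 22846 and 9655 CPM.

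**Figure D5:**
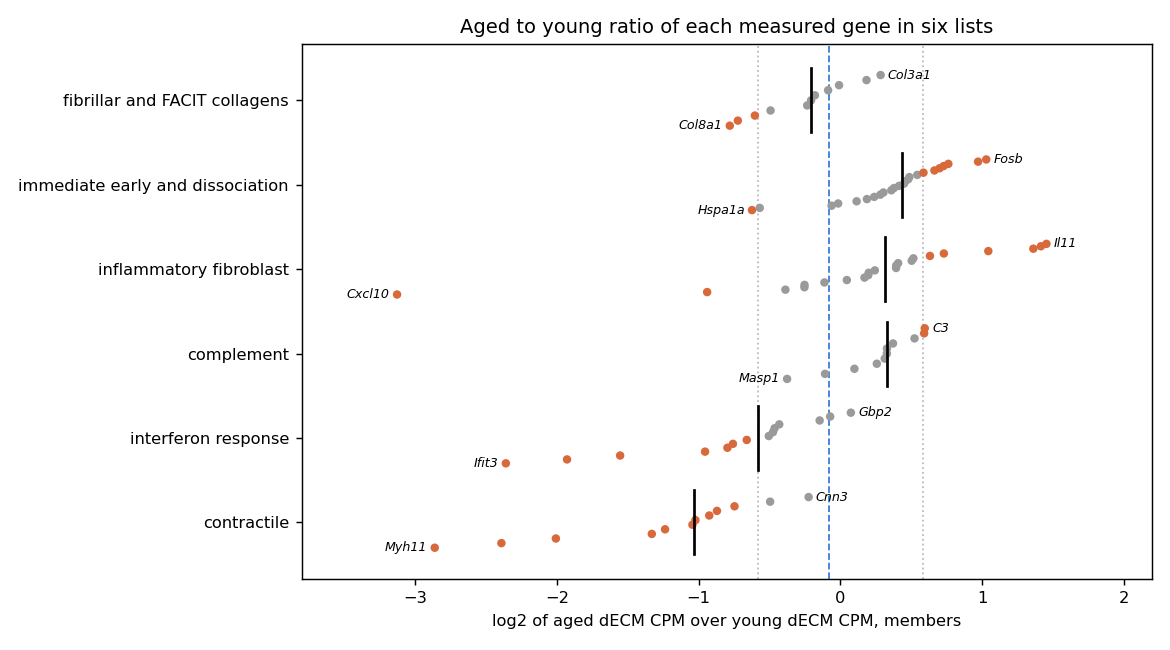
Log2 ratio of aged to young dECM level in members (x axis) for every measured gene of 6 lists. Orange points differ 1.5-fold or more (dotted lines), black bars are list medians and the blue dashed line is the median of all measured genes at -0.08; 10 of 12 contractile genes lie left of the dotted line, with a median of -1.03.

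The 10 highest and 10 lowest genes by ratio added several single genes. They were taken among genes whose level in members was at least 0.25 of that in any other cell set. Ndufa4l2, a mitochondrial protein induced by low oxygen, was at 27.0 CPM in young and 165 CPM in aged members, 6.11-fold higher (4.70 to 8.06), and was a leading gene of cluster 7. The other collagen-positive cells held it at 192 and 202 CPM. Cdkn1c, a cell cycle inhibitor of quiescent mesenchyme, was at 54.4 and 142 CPM, 2.60-fold higher (2.15 to 3.17). Saa1 was at 22.9 and 63.4 CPM, Itpkc at 11.2 and 31.0 CPM, Lsmem1 at 10.3 and 26.9 CPM and Chchd10 at 9.90 and 24.2 CPM.

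For 2 of the 10 highest genes a single aged cell held most UMIs. Igfbp2 was at 21.6 and 72.9 CPM with 72.6% of aged UMIs in 1 cell, and 1.71-fold higher without the top cells. Dkk2 was at 9.0 and 29.3 CPM with 71.7% in 1 cell, and 1.16-fold higher without the top cells. Cd3e, a T cell receptor component, was at 23.4 and 70.8 CPM, with UMIs in 13.0% and 28.6% of members. Outside the collagen-positive set it was at 2.00 and 1.4 CPM, and its partners were low in members, with Cd3d at 0 and 0.508 CPM in members and Cd3g 0.90 and 2.88 CPM.

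Among the 10 lowest, Xist, the noncoding RNA of the inactive X chromosome in females, was at 359 CPM in young and 93.9 CPM in aged members, with UMIs in 65.7% and 19.3% of cells. It was lower on aged matrix too in the other collagen-positive cells, at 142 and 73.7 CPM, and outside the collagen-positive set, at 309 and 157 CPM. The Y-linked gene Ddx3y was at 0.90 and 1.86 CPM in members. The sex of the recipients is not given in the sources used here, and Xist cannot be assigned to matrix age. The granzyme genes Gzmc (76.5 and 8.64 CPM) and Gzme (114 and 4.41 CPM) were 8.85-fold and 25.9-fold lower, and 1 young cell held 56.3% of the young Gzme UMIs. Anxa8 was at 35.5 and 8.64 CPM. Ccl9 (135 and 5.93 CPM) and Aqp5 (30.6 and 7.79 CPM) had 88.6% and 55.9% of their young UMIs in 1 cell.

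Lipid handling genes were higher for 3 of 9 measured. Apoe, an apolipoprotein, was at 282 and 754 CPM, 2.68-fold higher on aged matrix (2.46 to 2.92), while in the other collagen-positive cells it was at 306 and 166 CPM. Fabp4 and Fabp5, fatty acid binding proteins, were at 67.9 and 132 CPM and at 67.5 and 114 CPM. Macrophages also make Apoe, and the macrophage marker sums in members were 313 and 376 CPM. Pparg was at 4.95 and 7.45 CPM, 1.51-fold higher with an interval that includes 1 (0.765 to 3.23).

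All 4 measured class II histocompatibility genes were higher on aged matrix. Cd74, their chaperone, was at 7.20 and 102 CPM, with UMIs in 12.0% and 11.4% of members, so the higher level came from more UMIs in about the same share of cells. H2-Ab1 was at 11.2 and 56.8 CPM. Without the members that carried macrophage, endothelial or pericyte and smooth muscle markers 2 of the genes were higher. The part of leukocyte RNA in these values was not tested.

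C3 and C1ra were the 2 of 11 complement genes higher on aged matrix, at 1166 and 1761 CPM and at 180.0 and 271 CPM, both 1.51-fold, and neither was called with every cell weighted equally. Of 10 genes of the insulin-like growth factor list, Igfbp2 and H19 were higher and Igfbp4 lower. H19, an imprinted noncoding RNA, was at 27.0 and 59.3 CPM, Igfbp4 at 1571 and 977 CPM, 1.61-fold lower (1.54 to 1.68), and Igf1 at 344 and 362 CPM. Cxcl14 was at 3886 and 2004 CPM, 1.94-fold lower (1.89 to 1.99), the 1 called gene of 8 around Cxcl12. None of 5 carboxypeptidase genes was called. Of 11 early progenitor genes, Scara5, Gfpt2 and Creb5 were higher, Gfpt2 at 109 and 191 CPM.

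The hashing library gave no split by animal. A single tag was assigned to 84 young and 223 aged members, and 83 and 219 of these carried the same tag within their library, H-HTO-4 in the young and H-HTO-2 in the aged. Per the labels, the hashing antibodies were human ones.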

How the data were processed

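The data were filtered matrices of UMI counts, whole numbers and not normalized, which the authors deposited for 1 gene expression library and 1 hashing library per matrix age. Cell Ranger 6.0.0 with GRCh38 and mm10 made them, per the submitters' processing notes; cell calling and other settings are not given in the sources used here. Each matrix lists 36601 human genes, 32285 mouse genes and 52 antibody features. Gene names are those of the files, and the members' genes are mouse genes.

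UMIs were summed over the cells of a set and divided by the set's mouse UMIs (CPM). A gene was measured at 20 CPM in the higher group and 100 UMIs. Shares have exact Clopper-Pearson intervals, and ratios have conditional binomial intervals. With 1 library per group, no p-value was computed. The members, gene lists and rules were chosen with earlier results of these data known. Named genes were the 12 highest and 12 lowest against other collagen-positive cells, the 10 highest and 10 lowest between ages at 0.25 or more of the level in any other set, and in each list the most abundant, extreme or called genes. Mitochondrial, ribosomal and unnamed genes were left out of these, and some genes are not reported here.

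Doublets were not removed. Scrublet (in scanpy 1.11.5, expected rate 0.1) called none by its automatic threshold, so a score of 0.25, set after the scores were seen, marked doubtful cells for an alternative. Members were clustered with scanpy (Leiden, seed 1) without the rule's genes. TMM factors came from edgeR 4.0.16. Thinning drew 3000 UMIs per cell. The code for ratio calls and intervals was run on simulated sums that held counting error only. That run cannot speak to variation between cells or libraries. Other software was Python 3.11.15, numpy 2.4.6, pandas 2.3.3, scipy 1.17.1 and matplotlib 3.10.9.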

Additional observations from a re-analysis of the deposited data

How the results depend on the processing

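No paired analysis was possible because each matrix age is a single pooled library. Of the counts and shares recomputed under the alternatives, 88 moved by less than the limits set (1.5 times for a count, the counting interval for a share) and 26 moved further, as follows. Against the other collagen-positive cells, the 142 higher genes became 22 at 4-fold, 41 with collagens at 1% or more, 27 with cells thinned to 3000 UMIs, 87 with every cell weighted equally and 94 at 50 CPM. The 171 lower genes became 347 with no CPM minimum, 54 at 4-fold, 103 with collagens at 1% or more, 63 thinned and 93 at 50 CPM. Between ages, the 145 higher genes became 223 with no CPM minimum, 33 at 2-fold, 220 with TMM, 220 with median-of-ratios scaling, 59 thinned and 76 at 50 CPM. The 260 lower genes became 58 at 2-fold, 90 thinned and 108 at 50 CPM. Genes of the lists went from 36 to 18 higher and from 38 to 24 lower when thinned, where 1719 genes were measured in place of 6007. The members' share was 15.5% (young) and 26.0% (aged) with 20 UMIs of the 3 genes, 25.8% and 36.1% with collagens at 1% or more, and 25.9% (aged) with the 3 genes at 0.1% of UMIs.

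Of the named genes, 21 of 24 against the other collagen-positive cells and 15 of 20 between ages kept their direction and call under every alternative. The direction turned for Dkk2 (log2 of aged over young -1.13 thinned, -0.51 with equal weights, -3.19 with the 3 genes at 0.1%), Igfbp2 (-0.053 with the 3 genes at 0.1%) and Lsmem1 (-0.066 thinned). A single aged cell held most UMIs of Dkk2 and Igfbp2. For Lsmem1 the cause was not tested. Precision is limited by 1 library per matrix age and by 108 young members.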
